A study of Mus musculus with 6 samples.

Results

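The genes described here handle thyroid hormone or respond to it: Crym, Dio2 and Dio3, which bind, activate or inactivate the hormone, its nuclear receptors Thra and Thrb, and the response genes Klf9 and Hr. All probe sets that the array's annotation assigned to one of these 7 genes alone were taken, which gave 17 probe sets of 6 genes, out of 34945 probe sets naming a single gene on the array. Dio3 had no probe set assigned to it alone and was not analysed here. RNA came from micro-dissected cochlear sensory epithelia (CSE) of untreated Swiss Webster mice, 8 weeks old (adult) or at postnatal day 3 (P3). Each of the 6 arrays, 3 per stage, held a pool of 40 CSE from 20 mice, and the pools came from independent dissections. Per the methods, P3 CSE included the greater and lesser epithelial ridges, and adult CSE the inner sulcus and the interdental cells of the limbus, so the stages differ in the cells they hold.

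Thyroid hormone reaches cells mainly as thyroxine, which the deiodinase Dio2 turns into triiodothyronine, the form that binds the nuclear receptors. Dio3 inactivates both forms, and Crym, mu-crystallin, binds triiodothyronine in the cytosol. The receptors bind DNA with a retinoid X receptor, recruit corepressors without hormone and coactivators with it, and thereby set the level of response genes. In mice, hearing depends on this system: loss of Thrb or Dio2 impairs hearing, and too little hormone in the first postnatal weeks delays the regression of the greater epithelial ridge and alters the tectorial membrane. In humans, mutations of CRYM cause deafness.

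Values are linear MAS5.0 signals, for which the authors scaled every array to a trimmed mean of 100. The background level of an array, the 90th percentile of 83 probe sets for receptors of smell and bitter taste, lay between 8.71 and 16.3 on adult arrays and between 6.29 and 34.5 on P3 arrays. The highest background belonged to P3 replicate 1, which also had a 3' to 5' signal ratio of 82.0 for the control gene Gapdh, against 0.707 to 2.07 on the other 5 arrays. Stages were compared with limma on log2 signals over 29036 probe sets above background on at least 3 arrays. Calls required 2-fold or more together with p under 0.05 after Benjamini-Hochberg adjustment, and log2 fold changes are adult minus P3. With 3 arrays per stage, the smallest p that exact permutation allows is 0.1, and the number of arrays limits the precision. Of 11 hair cell markers with a probe set, 9 passed the filter, whereas Slc26a5, the motor protein of outer hair cells, was above background on 0 arrays of either stage, and Tmc1, a transduction channel subunit, also failed the filter. Of 11 markers of supporting cells and the epithelium around them, all 11 passed.

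Promoter sequences were at hand for 4 of the 7 genes, and Crym, Thra and Hr had none. The 250 bases before the transcription start (RefSeq, GRCm38.p6) are shown for Klf9, the member that rose in the adult, for Dio2, the activating enzyme, and for the first of the start sites listed for Thrb, the receptor required for hearing. Capitals mark matches on either strand to AGGTCA, the half-site of nuclear receptors, TGACGTCA, the cAMP response element, TATAAA, the TATA box, or CCAAT, the CCAAT box.
Klf9 (chr19:23140976-23141225, plus strand): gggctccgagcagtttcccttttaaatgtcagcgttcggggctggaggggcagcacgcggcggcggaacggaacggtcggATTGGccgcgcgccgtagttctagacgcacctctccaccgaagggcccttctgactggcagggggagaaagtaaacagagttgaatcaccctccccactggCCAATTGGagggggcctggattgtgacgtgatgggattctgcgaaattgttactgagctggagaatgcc
Dio2 (chr12:90739039-90739288, minus strand): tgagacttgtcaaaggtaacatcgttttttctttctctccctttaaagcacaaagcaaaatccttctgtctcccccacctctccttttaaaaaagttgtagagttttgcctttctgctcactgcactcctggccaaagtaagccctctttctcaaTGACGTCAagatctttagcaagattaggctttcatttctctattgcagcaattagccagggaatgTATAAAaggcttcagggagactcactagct
Thrb (chr14:17660710-17660959, plus strand): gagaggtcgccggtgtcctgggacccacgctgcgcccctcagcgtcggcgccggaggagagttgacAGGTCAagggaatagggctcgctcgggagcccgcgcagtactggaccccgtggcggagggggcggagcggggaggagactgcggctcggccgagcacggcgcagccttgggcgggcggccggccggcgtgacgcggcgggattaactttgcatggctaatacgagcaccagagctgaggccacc
The half-site stood once in the Thrb window, starting 184 bases before the start of transcription, and is found in 14% of 32851 promoter windows of this length. Neither Klf9 nor Dio2 held it here, and a direct repeat of AGGTCA with 4 bases between, the paired form that thyroid hormone receptors bind, was in none of the windows shown and in 0.0152% of all. The Dio2 window held TGACGTCA 95 bases before the start, a match found in 1.55% of windows, and TATAAA 30 bases before it, a match found in 12.4%. The Klf9 window held CCAAT at 170, 69 and 66 bases before the start, of which the matches at 69 and 66 lie on opposite strands and overlap, and 33.8% of windows hold this box. A match is a run of letters and not a measured binding site.

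Of the 6 genes measured, 1 rose and 1 fell in the adult CSE, and the receptors, Dio2 and Hr did not pass the test. Klf9 rose 3.49-fold, and Crym was 50.7-fold lower in the adult than at P3. Taken at the probe set of highest mean signal, 2 of the 6 genes were called, where 10.1% of all 13743 genes tested were called, 4.58% higher in the adult and 5.54% higher at P3. Of the 17 probe sets, 16 passed the filter and 5 were called, 4 of Klf9 and 1 of Crym, where 7.26% of all probe sets tested were called, 3.39% higher in the adult and 3.87% higher at P3. The arrays of the stages did not overlap on 8 of the 16, where 31.1% of all probe sets tested show no overlap, and on the brightest probe set of 2 of the 6 genes, where 36.3% of all genes show none.

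**Figure D1:**
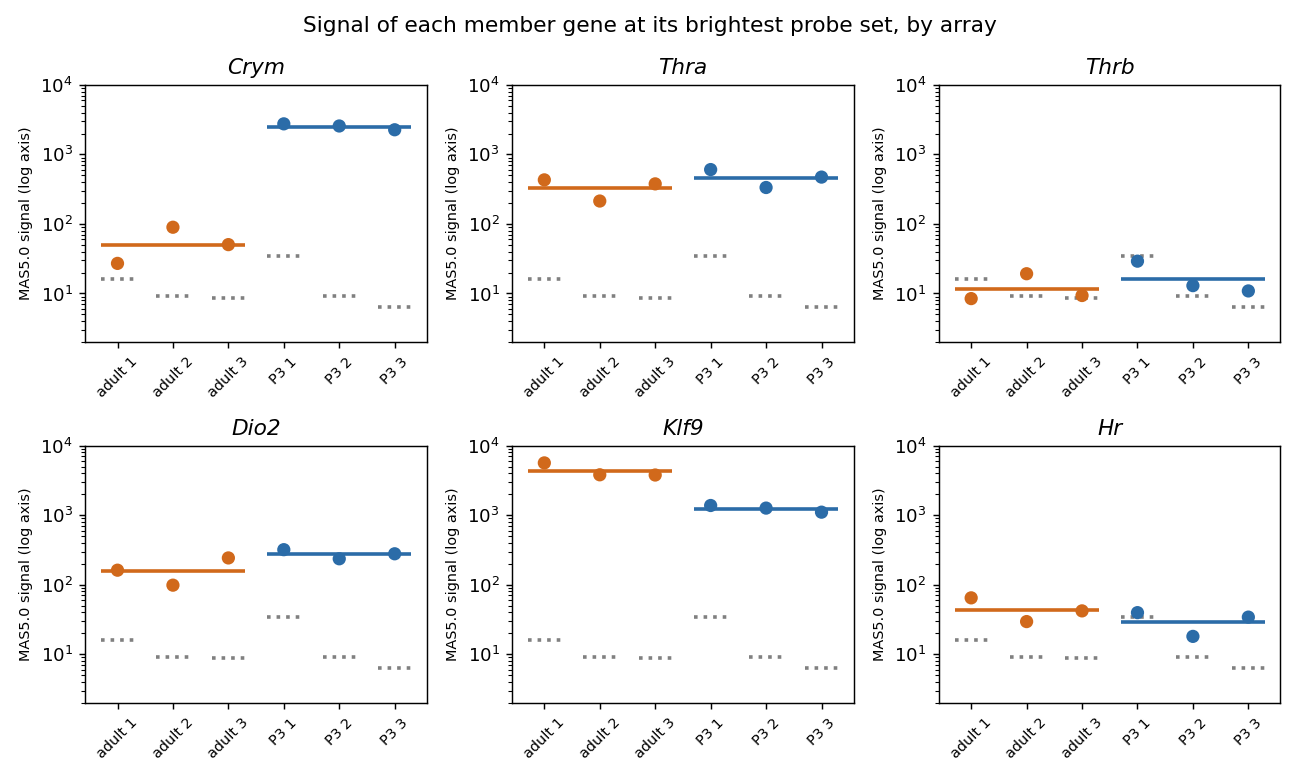
MAS5.0 signal (log axis) of each member gene at its brightest probe set on the 3 adult arrays (orange) and the 3 P3 arrays (blue), with the geometric mean of each stage as a line and the background level of each array as a dotted line. The stages lie apart for Crym and for Klf9 and overlap for Thra, Thrb, Dio2 and Hr.

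**Figure D2:**
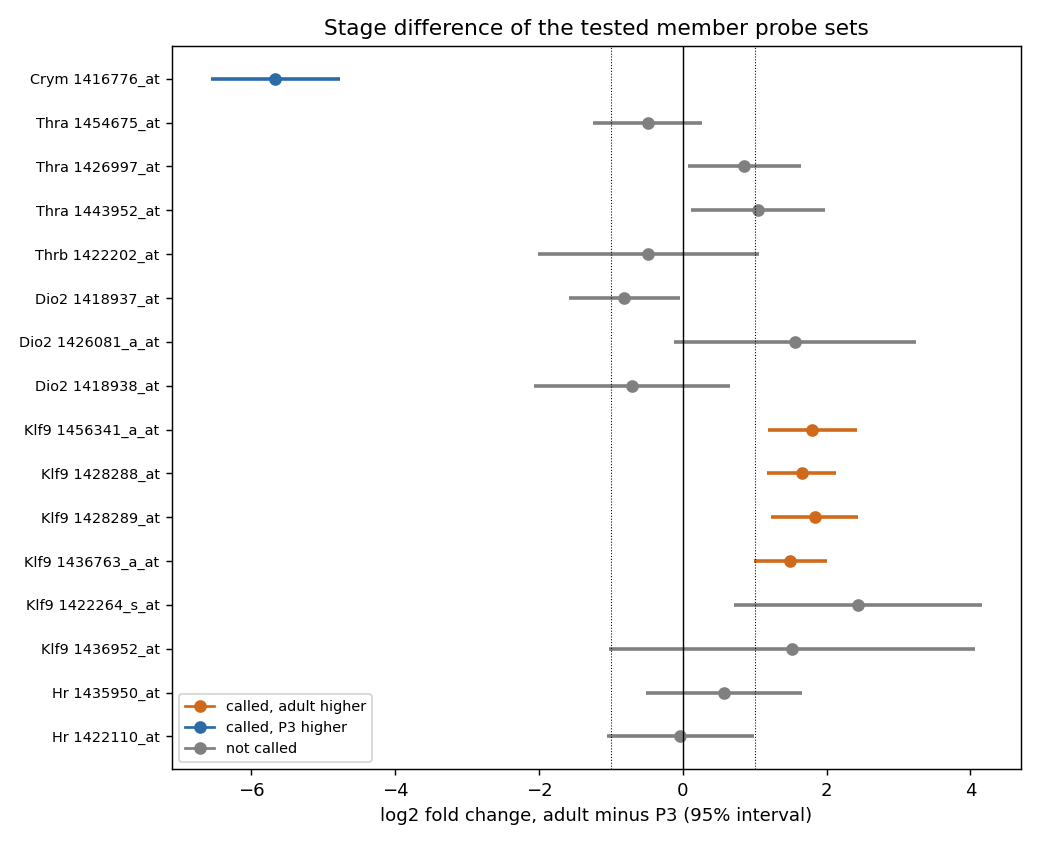
Log2 fold change (adult minus P3) of the 16 tested probe sets, with the 95% interval of limma as a bar, and dotted lines at a fold of 2 in either direction. Crym (1 probe set, blue) was called higher at P3, 4 probe sets of Klf9 (orange) were called higher in the adult, and the rest (grey) were not called.

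Crym, the cytosolic binding protein of triiodothyronine and also a ketimine reductase, showed the widest separation of the stages among the members. Its signals were 27.1, 89.7 and 50.5 on the adult arrays, against 2755, 2567 and 2265 on the P3 arrays. Every adult array lay above its own background level, and the highest adult signal was far below the lowest at P3. Crym averaged 55.8 ± 31.7 in the adult and 2529 ± 247 at P3 (SD, n = 3 arrays each), a log2 fold change of -5.67 (limma SE 0.39, adjusted p = 0.000499). The call held with each single array left out, at log2 fold changes between -6.09 and -5.23. Of 7 measured markers of the greater epithelial ridge and interdental cells, none was higher in the adult by limma, also at an unadjusted p under 0.05. Their summed signal was 7520 to 8275 on adult arrays, against 15040 to 39330 on P3 arrays and up to 22570 without P3 replicate 1. Calb1, Otoa and Epyc were not called (log2 fold change -2.91, -0.72 and -0.36, limma adjusted p = 0.0805, 0.481 and 0.74). Otoa and Epyc overlapped between the stages. The other 4 were called higher at P3. These 4 were Tecta and Tectb, which build the tectorial membrane, Crabp1, which binds retinoic acid, and Oc90, a protein of otoconia. In bulk tissue, fewer cells of a type and less RNA per cell cannot be told apart, and the part of these cells in the fall of Crym was not tested.

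Dio2, the deiodinase that makes triiodothyronine from thyroxine, did not pass the test on any of its 3 probe sets, and they did not point one way. At the brightest, 1418937_at, the signals were 162, 98.5 and 243 in the adult, against 319, 236 and 279 at P3. Only the third adult array reached into the P3 range. The means were 168 ± 72.3 in the adult and 278 ± 41.6 at P3 (SD, n = 3), with a log2 fold change of -0.81 (95% interval -1.58 to -0.05, limma adjusted p = 0.188). Probe set 1426081_a_at gave 32.2, 21.1 and 36.1 in the adult, against 3.38, 17.7 and 16.1 at P3, with no overlap but with the P3 replicate 1 value below background. Its log2 fold change was 1.56 (95% interval -0.13 to 3.24, adjusted p = 0.245) with all arrays and 0.79 without P3 replicate 1, and the call was missed with any array left out (adjusted p between 0.245 and 0.536). The third probe set, 1418938_at, lay close to background, at 10.3 to 15.8 in the adult and 12.7 to 33.1 at P3 (log2 fold change -0.71, and -0.33 without P3 replicate 1). Within each array, the log2 signal of 1426081_a_at minus that of 1418937_at averaged -2.43 ± 0.28 in the adult and -4.80 ± 1.53 at P3 (SD, n = 3), a shift of 2.37 with no overlap (two-sided exact permutation p = 0.1, the smallest possible). The shift was 1.49 without P3 replicate 1 and 1.52 with the mean background added to all signals. Which transcripts of Dio2 each probe set detects is not given in the sources used here.

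Thra, the receptor gene expressed in most tissues, had 3 probe sets with estimates of different sign, and none was called. The brightest, 1454675_at, had signals of 431, 214 and 377 in the adult, against 606, 335 and 472 at P3. The ranges overlapped, and the log2 fold change was -0.49 (95% interval -1.24 to 0.27, limma adjusted p = 0.42). Probe set 1426997_at had 148, 87.3 and 191 in the adult, against 89.4, 61.1 and 76.3 at P3, a log2 fold change of 0.86 (95% interval 0.07 to 1.64, adjusted p = 0.176). The lowest adult value fell inside the P3 range. Probe set 1443952_at had 90.5, 113 and 167 in the adult, against 34.0, 66.5 and 86.8 at P3, with no overlap and a log2 fold change of 1.04 (95% interval 0.11 to 1.98, adjusted p = 0.168), or 0.66 without P3 replicate 1. Within an array, the log2 signal of 1426997_at minus that of 1454675_at averaged -1.27 ± 0.28 in the adult and -2.61 ± 0.15 at P3 (SD, n = 3), a shift of 1.34 without overlap (two-sided exact permutation p = 0.1, the smallest possible). This shift was 1.27 without P3 replicate 1. For 1443952_at minus 1454675_at the shift was 1.53, also without overlap and at the same p, and 0.94 without P3 replicate 1, whereas 1443952_at and 1426997_at differed by 0.19 (exact permutation p = 0.8).

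**Figure D3:**
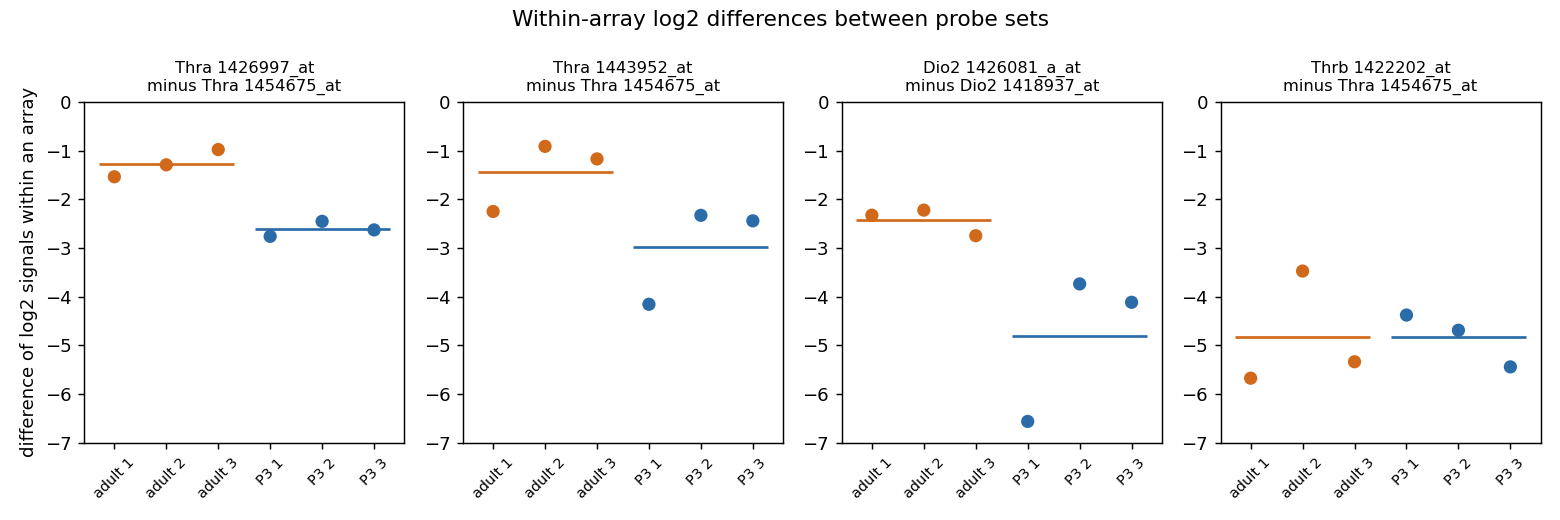
Difference of log2 signals between 2 probe sets within each of the 3 adult (orange) and 3 P3 (blue) arrays, with stage means as lines. The level of a difference depends on the probes and only its shift between stages can be read: 1.34 and 1.53 for the Thra pairs and 2.37 for the Dio2 pair, with no overlap, whereas Thrb over Thra overlaps and includes 1 array per stage on which Thrb is not above background.

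Thra is known to yield, by alternative splicing at its 3' end, a receptor that binds hormone and a variant that does not, and the transcripts seen by each of these probe sets are not given in the sources used here. The annotated gene overlaps its neighbour Nr1d1, a repressor of the circadian clock that is transcribed from the other strand. Nr1d1 had signals of 64.1, 39.97 and 48.8 in the adult, against 4.92, 2.77 and 2.07 at P3, where it was below background on all arrays. It was thus at least 3.98-fold higher in the adult. The limma fit, which used signals below background as they stood, gave an adjusted p of 0.00865. The part of Nr1d1 in the Thra signals was not tested.

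Thrb, the receptor on which cochlear maturation depends in mice, lay at the edge of detection. Its single probe set had signals of 8.44, 19.2 and 9.35 in the adult, against 29.2, 13.0 and 10.9 at P3, and was above background on 2 arrays of each stage. The log2 fold change was -0.48 with a 95% interval of -2.01 to 1.05 (limma adjusted p = 0.713), an interval that holds a fold of 2 in either direction, and without P3 replicate 1 the estimate was -0.05. On adult replicate 1 and P3 replicate 1 Thrb was not above background, so its ratio to Thra within an array is poorly measured. The stage shift of this log2 ratio was 0.008 with all arrays, between -0.67 and 0.43 with single arrays left out, and -0.95 with the probe sets of Thra averaged.

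Klf9, a zinc finger transcription factor that triiodothyronine induces in brain and other tissues and that glucocorticoids induce as well, rose in the adult CSE. At its brightest probe set, 1456341_a_at, the signals were 5654, 3813 and 3785 in the adult, against 1379, 1265 and 1105 at P3. The stages were well apart, with adult replicate 1 above the other adult arrays. The means were 4417 ± 1071 in the adult and 1250 ± 137 at P3 (SD, n = 3), a log2 fold change of 1.80 (limma SE 0.27, adjusted p = 0.00727). Probe set 1428288_at gave the tightest replicates, 2399, 2350 and 2185 in the adult, against 740, 784 and 686 at P3, and a log2 fold change of 1.65 (SE 0.21, adjusted p = 0.00398). Probe sets 1428289_at and 1436763_a_at had log2 fold changes of 1.83 and 1.50 (SE 0.27 and 0.23, adjusted p = 0.00647 and 0.00709). Each of these 4 stayed called with any single array left out. Their estimates ran from 1.50 to 1.83 although their signals differed widely.

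The other 3 Klf9 probe sets were dimmer. Probe set 1422264_s_at had 272, 214 and 245 in the adult, against 10.6, 105 and 82.1 at P3, a log2 fold change of 2.43 (adjusted p = 0.0921). Its low value on P3 replicate 1 was below that array's background, and without this array the log2 fold change was 1.39 and the adjusted p 0.0142. Probe set 1436952_at overlapped between the stages (33.1 to 109 in the adult, 2.65 to 67.2 at P3), and its log2 fold change of 1.51 was 0.06 without P3 replicate 1. The last, 1452723_at, failed the filter, with 6.77 to 12.3 in the adult and 2.16 to 3.42 at P3. Granulocyte markers moved with the stages too: 10 of 10 were higher in the adult, with a summed signal of 3958 to 17990 on adult arrays, against 118 to 360 on P3 arrays. The granulocyte sum was highest on adult replicate 2. Of 10 neuron markers, 3 were higher in the adult, the synaptic Snap25, the neurofilament Nefh and the sodium channel Scn8a, and 0 were called higher at P3. At an unadjusted limma p under 0.05, 5 were higher in the adult and 1 was higher at P3, Syt1, at a log2 fold change of -1.85. The neuron list summed to 24570, 8635 and 13130 on the adult arrays, against 4791 to 5470 on P3 arrays. It was highest on adult replicate 1, as was Klf9 at its brightest probe set (5654, 3813 and 3785 on the adult arrays). At 1428288_at, by contrast, Klf9 had nearly equal adult signals of 2399, 2350 and 2185. The part of granulocytes and neurons in the rise of Klf9 was not tested.

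Hr, hairless, is a corepressor of nuclear receptors that triiodothyronine induces in the developing rodent brain. It was low and did not pass the test. Probe set 1435950_at had 64.7, 29.5 and 42.0 in the adult, against 39.6, 18.1 and 34.2 at P3, and 1422110_at had 40.8, 25.4 and 20.3 in the adult, against 32.5, 30.1 and 23.2 at P3. The stages overlapped on both. The log2 fold changes were 0.57 (95% interval -0.52 to 1.66, limma adjusted p = 0.518) and -0.04 (95% interval -1.06 to 0.99, adjusted p = 0.974). Klf9 and Hr thus gave different outcomes in the test, but the difference between their changes was not itself tested.

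Among other genes that carry thyroid hormone or move it across membranes, 4 transporters were higher in the adult. Of 10 listed, 7 passed the filter, of which 4 were higher in the adult and none was higher at P3 by limma, also at an unadjusted p under 0.05, with a median log2 fold change of 1.27, beside -0.04 over all genes. Slco1c1, a thyroxine transporter of brain capillaries, had 1649, 2220 and 2529 in the adult, against 241, 407 and 401 at P3, a log2 fold change of 2.63 (limma SE 0.29, adjusted p = 0.00212). Slco1a4, an organic anion transporter that also carries the hormone, had 361, 329 and 217 in the adult, against 40.2, 62.4 and 74.8 at P3, a log2 fold change of 2.37 (SE 0.32, adjusted p = 0.0051). Both kept their calls with any array left out, and the arrays of the stages lay well apart. Slc7a8, an amino acid and iodothyronine transporter, rose by a log2 value of 1.71 (SE 0.33, adjusted p = 0.0199), and Slc3a2, the shared heavy chain of such transporters, by one of 1.27 (SE 0.31, adjusted p = 0.0434). Slc7a8 lost its call without adult replicate 3, P3 replicate 2 or P3 replicate 3 (adjusted p = 0.115, 0.069 and 0.0574). Slc3a2 lost it without adult replicate 1, 2 or 3 or P3 replicate 2 (adjusted p = 0.107, 0.0815, 0.154 and 0.1), and without P3 replicate 1 its log2 fold change was 0.94, under a fold of 2. The list then held 2 called genes without adult replicate 3 or P3 replicate 2. Ttr, the thyroxine carrier of plasma and choroid plexus, was at -0.95 on the log2 scale (adjusted p = 0.327), and Slc7a5, another amino acid transporter, at -0.01. Dio1, the deiodinase of liver and kidney, was above background on 0 of the 6 arrays. Among other cell types, markers of granulocytes (10 of 10), neurons (3 of 10), pituitary (2 of 3) and erythroid cells (2 of 3) also had members higher in the adult. Stria vascularis and melanocyte markers were called both ways, 2 of 8 higher in the adult and 1 higher at P3. At an unadjusted limma p under 0.05, 4 of these 8 rose in the adult and 1 fell. Their summed signal was 3423, 8690 and 11300 on the adult arrays, against 1920 to 2758 on P3 arrays. Markers of mesenchyme and fibrocytes (2 of 11, 2 at P3) and of bone and cartilage (2 of 7, 1 at P3) were also called both ways. The bone and cartilage sum was lower on adult arrays, at 2232 to 3349, against 4266 to 5375 on P3 arrays. Supporting cells (1 of 11, 2 at P3) and macrophages (1 of 8, 1 at P3) were as well. Schwann cell markers had 1 of 6 higher in the adult. The part of these cells in the transporter signals was not tested.

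None of 11 measured retinoid X receptors and receptor coregulators and none of 5 genes of selenoprotein synthesis, on which the deiodinases depend, were called by limma (median log2 fold change 0.06 and -0.32). At an unadjusted p under 0.05, 1 of the 11 was higher in the adult, while 1 of the 11 and 1 of the 5 were higher at P3. Rxrg, the receptor partner of restricted expression, had 21.2, 6.83 and 18.6 in the adult, against 62.8, 50.9 and 51.7 at P3. These values did not overlap, and its log2 fold change of -1.98 had an adjusted p of 0.0589, which ranged from 0.00214 to 0.161 over the other settings. Rxra and Rxrb, the widely expressed partners, had log2 fold changes of 0.001 and 0.48 (adjusted p = 0.999 and 0.35). Ncoa3, a coactivator, had an adjusted p of 0.042 at a log2 fold change of 0.95, just under a fold of 2, and was called without adult replicate 1 (log2 fold change 1.10).

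Of 13 measured genes known to respond to thyroid hormone in brain or liver, 2 rose in the adult and 1 fell. Among all genes tested, 4.58% were called as rising and 5.54% as falling. At an unadjusted limma p under 0.05, 7 of the 13 rose and 1 fell. The list median was a log2 fold change of 0.58, beside -0.04 over all genes. Thrsp, a lipogenic protein that triiodothyronine induces in liver, had 232, 469 and 503 in the adult, against 28.4, 38.4 and 27.5 at P3, a log2 fold change of 3.61 (limma SE 0.35, adjusted p = 0.00142). Dbp, which responds to the hormone in liver and is also an output gene of the circadian clock, rose by a log2 value of 2.02 (SE 0.35, adjusted p = 0.013). Rasd2, a small GTPase of the striatum, went the other way, with 38.3, 24.8 and 11.4 in the adult, against 262, 213 and 155 at P3, so that its log2 fold change was -3.22 (SE 0.47, adjusted p = 0.00637). All 3 stayed called with any array left out.

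Of 7 measured cochlear genes whose level or timing depends on thyroid hormone, 2 fell and 1 rose in the adult. Tecta and Tectb, the tectorins of the tectorial membrane, had log2 fold changes of -6.49 and -6.26 (limma adjusted p = 0.000694 and 0.00169). Kcnj10, a potassium channel of supporting cells and stria vascularis, rose by a log2 value of 1.85 (SE 0.35, adjusted p = 0.0171), a call lost without adult replicate 2, adult replicate 3 or P3 replicate 3 (adjusted p = 0.0518, 0.0864 and 0.06). This call was also lost with all arrays scaled to the same median or without limma's intensity trend (adjusted p = 0.108 and 0.0691). Among genes of the thyroid axis and pituitary, 4 of 13 passed the filter and the hormones Prl and Gh were higher in the adult. Prl, prolactin, had 756, 1197 and 71.5 in the adult, against 0.80 to 1.92 at P3, where it was below background on all arrays. The difference was at least 31.9-fold, and limma on the signals as they stood gave an adjusted p of 0.00315. Gh, growth hormone, had 2632, 1942 and 177 in the adult, against 46.7, 12.3 and 9.09 at P3 (log2 fold change 5.80, adjusted p = 0.0125), and adult replicate 3 was the lowest adult array for both. Tshb, the chain that defines thyrotropin, was above background on 0 adult arrays (15.3, 7.71 and 3.82) and 2 P3 arrays (10.99 and 9.66), and Cga, the chain shared by the glycoprotein hormones of the pituitary, on 2 adult arrays (46.6 and 41.0) and 0 P3 arrays. The summed signal of the 3 pituitary markers that passed the filter, of 8 listed, was 285 to 3432 in the adult, against 33.0 to 69.2 at P3, and since the pituitary also expresses Thrb and Dio2, the sum is given beside them and its part in their signals was not tested.

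**Figure D4:**
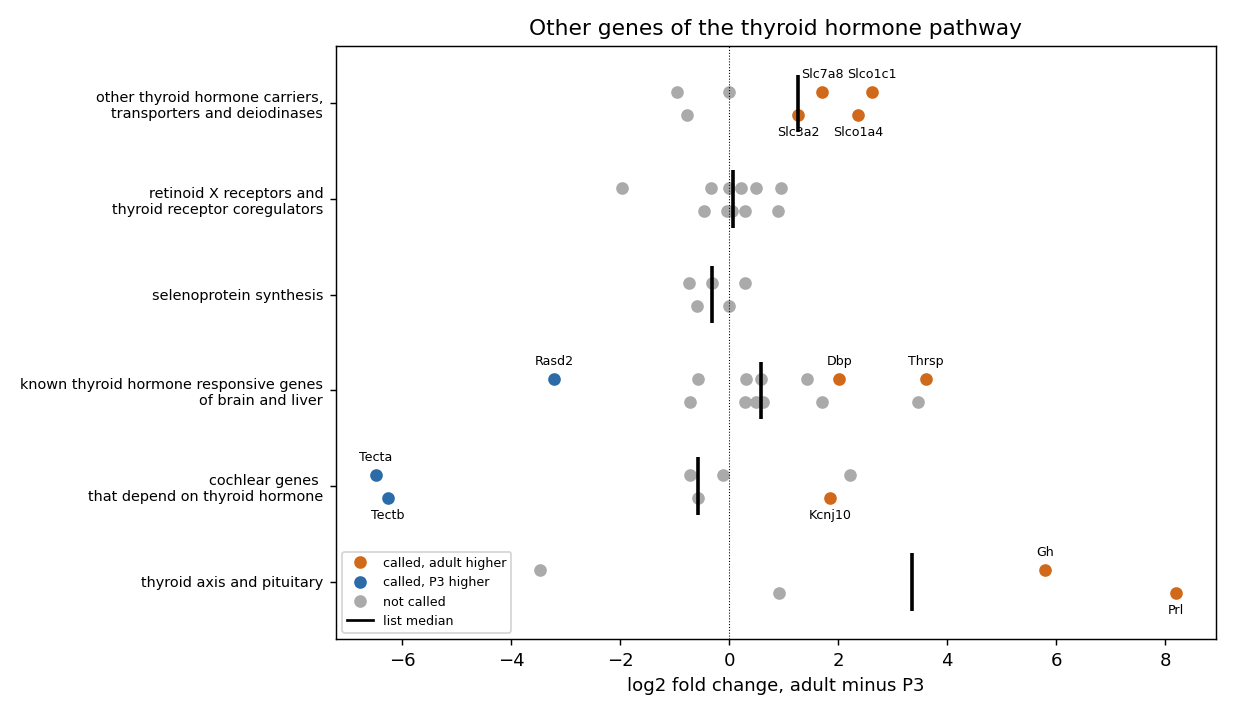
Each measured gene of 6 lists around the thyroid hormone pathway as 1 point, placed on the horizontal axis by its log2 fold change (adult minus P3) at the brightest probe set, with a black line at the list median. Called genes are named, orange where higher in the adult and blue where higher at P3; 4 transporters lie on the adult side and the tectorins far on the P3 side.

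Over the 6 arrays of log2 signals, the genes most like Crym among 13742 others were Pdgfrl, Zc3hav1l and Hs2st1 (Pearson's r between 0.9985 and 0.9992), which were also lower in the adult than at P3. Most like Klf9 were Mbnl2, Atp6ap2 and Tmem47 (r between 0.9952 and 0.9969), at log2 fold changes of 1.50, 0.87 and 1.49. For Dio2 they were Tjap1, Chsy3 and Sf3b3 (r at least 0.9853), for Thra Faap100, Acsl5 and Pip4k2b (at least 0.992), for Thrb Mars1, Prkrip1 and Pigbos1 (at least 0.9879) and for Hr Grid2ip, Kcnc4 and Sdr39u1 (at least 0.9934). These correlations rest on 6 arrays that share their scaling and their stages, and among so many genes some reach high values.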

How the data were processed

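RNA of 6 pools of CSE was hybridized to Affymetrix Mouse Genome arrays. Per the labels and the methods, the authors computed an intensity for each probe set with MAS5.0, and the deposited intensities are linear. The submitters' processing notes name GCOS 1.2, and the methods another version. Detection calls were not used, and 0 columns were left unmatched to a sample. Of 45101 probe sets, 64 are controls, and by an annotation of the platform 34945 name 1 gene, 932 several and 9160 none.

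Log2 signals of 29036 probe sets above background on at least 3 arrays were fitted with limma 3.58.1 in R 4.3.3 (lmFit, eBayes with intensity trend, stage as the only factor). No further normalization was applied. SE is limma's moderated standard error. Where no array of a stage exceeded background, the fold was taken against the background level and is given as a lower bound. The p given with such a bound comes from the fit of the log2 signals as they stood and does not test the bound. The SAM test of the methods rests on relabelled arrays and was not run. The planned ratio of Dio2 over Dio3 could not be made.

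Members and lists were chosen with earlier results of these data known. List counts, medians and sums took each gene at its tested probe set of highest mean signal. Genes named are all members, in each pathway list the 4 called genes of largest change and 1 called the other way, with the retinoid X receptors and Tshb, the 3 genes most like each member, and defining markers. Slc7a5, Ttr, Dio1, Ncoa3, Cga, Nr1d1, the genes under other observations and the comparisons between probe sets of Thra and of Dio2 were chosen after their values were seen. Alternatives covered normalization, signal filters, low signals, the model, a replicate block and each array left out.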

Additional observations from a re-analysis of the deposited data

How the results depend on the processing

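Crym and Klf9 were the 2 member genes called in each of 16 other settings, with Crym at log2 fold changes between -6.09 and -5.23 and Klf9 between 1.61 and 1.90 at their brightest probe sets. The 5 called member probe sets became 3 with all arrays scaled to the same median, where 2 of Klf9 were called, and 9 with array quality weights, which added Thra 1426997_at and 1443952_at, Dio2 1426081_a_at and Klf9 1422264_s_at, and numbered 5 to 6 with single arrays left out. The 4 called Klf9 probe sets numbered 4 to 5 with single arrays left out.

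Over all probe sets, 2109 were called, 984 higher in the adult and 1125 at P3. Scaling to the same median gave 562 (280 and 282), no intensity trend 899 (414 and 485), array quality weights 7593 (4411 and 3182), and single arrays left out 576 to 2839 (234 to 1399 and 342 to 1440). Called carriers and transporters fell to 1 of 4 with the same median, 2 without the trend and 2 to 3 with single arrays left out. Receptors and coregulators, 0 called, had 1 after quantile normalization, flooring at background, adding the mean background or the replicate block, 2 with quality weights and 0 to 1 with single arrays left out. Responsive genes of brain and liver, 3 called, had 2 with the same median or no trend, where Dbp was not called (adjusted p = 0.0883 and 0.059), 4 with the replicate block, 5 with flooring, 6 with quality weights and 3 to 4 with single arrays left out. Cochlear genes, 3 called, had 2 with the same median or no trend, where Kcnj10 was not called (adjusted p = 0.108 and 0.0691). They had 5 with quality weights and 2 to 4 with single arrays left out. Axis genes, 2 called, had 1 with a filter of 4 arrays or no trend. They had 3 after quantile normalization, adding the mean background or quality weights, and 2 to 3 with single arrays left out.

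With the probe sets of each gene averaged, the log2 fold change was 0.47 for Thra and 0.012 for Dio2, so that their direction turned, and Thrb over Thra shifted by -0.95. With single arrays left out this last ratio ran from -0.67 to 0.43. Signs also turned for Hr 1422110_at (0.051 after quantile normalization, -0.32 to 0.19 with single arrays left out), Rxra (-0.006 with the mean background added, -0.27 with quality weights, -0.29 to 0.29 with single arrays left out) and Klf9 1436952_at (-0.45 with quality weights). The cause was not tested.

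Same-numbered arrays of the stages had correlations of deviations from the stage means of 0.182, 0.213 and 0.076. Arrays of different number had lower ones, from -0.197 to 0.054. The methods describe no pairing of adult with P3 pools, so the main fit took none. Whether the numbers mark something shared was not tested. With the replicate number as a block, 2649 probe sets were called, against 2109 without it. The block called Rxrg (log2 fold change -1.98, limma adjusted p = 0.0484) and changed no call of a member probe set. Signal over background limits Thrb, Hr and the dim probe sets of Dio2 and Klf9.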

Other observations

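The genes given here were chosen after their values were seen. Iyd, which recovers iodide from iodotyrosines, had signals of 0.60, 6.25 and 6.61 in the adult, against 21.4, 40.9 and 34.9 at P3. It was above background on 0 adult and 2 P3 arrays, and failed the filter. Trhr, the receptor of thyrotropin-releasing hormone, was below background on all adult arrays and had 51.0, 46.9 and 26.0 at P3. The geometric mean at P3 was 3.64-fold the background level of the adult arrays, but Trhr was not called (limma adjusted p = 0.0627). Dio3os, the RNA transcribed opposite Dio3, was above background on 0 arrays of either stage.

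Beside Dbp and Nr1d1, values are given for 3 further genes of the circadian clock. Nr1d2, at its brightest probe set, had 1298, 1777 and 1639 in the adult, against 330, 587 and 531 at P3 (log2 fold change 1.73, SE 0.28, limma adjusted p = 0.00929). Per1 and Per2, at their brightest probe sets, had log2 fold changes of 1.28 and 1.85 (SE 0.27 and 0.30, adjusted p = 0.028 and 0.0102). The arrays did not overlap between the stages on these probe sets. Dimmer probe sets of Per2 were not called (adjusted p = 0.171 and 0.41), and one of Nr1d2 failed the filter. The time of day of the dissections is not given in the sources used here.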
